A study of Mus musculus with 281 samples.

Results

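Ribosomal protein pseudogenes are copies of the genes for the proteins of the ribosome. They were taken as every gene of the deposited table whose name begins with Rpl or Rps and holds -ps, which gave 270 of 47752 genes, and all but 1 of them had a parent gene of the same name stem in the table (59 parent genes). The annotation classed 6 of them as transcribed processed pseudogenes, 6 as protein coding and the rest as processed pseudogenes. The measurements were single cells of the mouse stria vascularis, the cochlear tissue that secretes endolymph, picked with a micropipette and read with Smart-Seq2, a full-length cDNA method without molecular identifiers. The cells came from Slc26a4+/+ mice (WT, with 52, 26, 75 and 19 cells in sequencing runs 1 to 4, P22 to P42), Slc26a4+/- mice (HET, 40 cells in run 4, P26 to P33) and Slc26a4-/- mice (KO, 69 cells in runs 1, 2 and 4, P24 to P44). All were untreated males on the 129S6 background by the study's methods, and Slc26a4 encodes the anion exchanger pendrin. The study's methods give the number of mice of each genotype, but the labels tie no cell to a mouse. Each genotype within a cell type and sequencing run was therefore taken as 1 sample. No test was run, and all values below are descriptions.

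Ribosomal protein genes are transcribed in every cell, and each encodes a protein of the small (Rps) or the large (Rpl) ribosomal subunit. Mammalian genomes hold many processed copies of them, made when their mRNAs were reverse transcribed and inserted elsewhere; such copies lack introns and most carry no known function. Where a copy is nearly identical to its parent, a sequencing read often matches both, and a quantifier that shares such reads out by likelihood divides them by whatever few bases differ.

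Of 5 pairs of pseudogene and parent whose counts divided differently between genotypes, 4 are shown by the bases that set the members apart, since within the aligned part a read over none of these bases, and over no gap, fits both. The fifth, Rps2-ps10, is described by its values alone. Each of the 4 parent transcripts also begins further 5′ than its copy, and reads there fit the parent and not the copy. Capitals mark the bases that differ between the lines of a pair. Positions count from 1 at the 5′ end of the parent transcript in the GENCODE M21 annotation of GRCm38, the parent's base is written first, and every stretch is coding sequence of the parent. Rps13-ps1 (ENSMUSG00000066362.5, chr8:87047689-87048226, plus strand, in no other gene) was 99.6% identical to Rps13, a small-subunit protein gene, over 522 bases and differed from it at T499C and A517G.
Rps13: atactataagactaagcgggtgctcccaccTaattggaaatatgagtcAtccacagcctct
Rps13-ps1: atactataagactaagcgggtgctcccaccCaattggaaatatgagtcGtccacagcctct

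Rpl34-ps1 (ENSMUSG00000068396.9, chr6:71124610-71124963, plus strand, in no other gene) was 99.4% identical to Rpl34, a large-subunit protein gene, and differed at T358C and C544G.
Rpl34, around T358C: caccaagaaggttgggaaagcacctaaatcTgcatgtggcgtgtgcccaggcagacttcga
Rpl34-ps1, around T358C: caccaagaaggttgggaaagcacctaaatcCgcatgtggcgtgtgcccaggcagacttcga
Rpl34, around C544G: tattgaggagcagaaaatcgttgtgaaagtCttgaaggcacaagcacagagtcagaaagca
Rpl34-ps1, around C544G: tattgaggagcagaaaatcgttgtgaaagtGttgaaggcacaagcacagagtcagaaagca

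Rpl14-ps1 (ENSMUSG00000046721.11, chr7:45324965-45325617, plus strand, opposite an intron of Trpm4) was 98.9% identical to Rpl14 and differed at 4 bases, C515T, A518G, C664T and A665G, and at 1 gap.
Rpl14, around C515T: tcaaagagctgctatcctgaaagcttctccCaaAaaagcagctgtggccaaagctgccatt
Rpl14-ps1, around C515T: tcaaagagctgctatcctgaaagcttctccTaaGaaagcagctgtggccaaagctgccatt
Rpl14, around C664T: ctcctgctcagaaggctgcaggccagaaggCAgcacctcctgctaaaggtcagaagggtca
Rpl14-ps1, around C664T: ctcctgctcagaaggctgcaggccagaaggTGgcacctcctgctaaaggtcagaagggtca

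Rpsa-ps10 (ENSMUSG00000047676.6, chr3:150072658-150073542, minus strand, in no other gene) was 99.3% identical to Rpsa, which encodes a small-subunit protein also known as the laminin receptor. It differed at 6 bases, C200A, T385C, C394T, C520G, C871T and G1033A.
Rpsa, around T385C: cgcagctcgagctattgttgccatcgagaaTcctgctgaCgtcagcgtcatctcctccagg
Rpsa-ps10, around T385C: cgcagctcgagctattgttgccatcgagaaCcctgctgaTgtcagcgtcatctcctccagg
Rpsa, around C520G: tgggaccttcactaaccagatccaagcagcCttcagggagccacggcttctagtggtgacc
Rpsa-ps10, around C520G: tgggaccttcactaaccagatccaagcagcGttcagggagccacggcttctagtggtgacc
Rpsa, around C871T: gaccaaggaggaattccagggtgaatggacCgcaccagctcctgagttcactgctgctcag
Rpsa-ps10, around C871T: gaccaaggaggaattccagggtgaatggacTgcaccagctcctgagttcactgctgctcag

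These bases are those of the reference genome. The bases that the 129S6 mice, or mice of each genotype, carry at these positions were not read here.

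The cells fell into 6 clusters made without ribosomal protein genes or their pseudogenes. Of these, 4 were named from markers: intermediate cell-like (IMC-like, 110 cells, Kcnj13 and Ednrb among the leading genes), root cell-like (RC-like, 36 cells, Epyc), spindle cell-like (SC-like, 34 cells, Anxa1) and marginal cell-like (MC-like, 21 cells, Kcne1). Lum, a fibrocyte gene, was also among the leading genes of the RC-like cells. The 5 fibrocyte markers had median sums of 470 to 2379.5 CPM in RC-like cells by run and genotype. The 3 Schwann cell markers had median sums of 930 to 2658 CPM in IMC-like cells. These were 2658 CPM in KO and 2001 CPM in WT of run 2, and 2126 and 1368 CPM in run 4. The part of these markers in the values below was not tested. The 3 basal cell markers had median sums of 1917 to 5019 CPM in SC-like cells by run and genotype. Those medians were 1.80 to 1745 CPM in MC-like, 0.807 to 889 CPM in RC-like and 2.42 to 27.4 CPM in IMC-like cells. The other clusters stayed unnamed, 1 of 63 cells led by the blood genes Slc4a1 and Hbb-bs and 1 of 17 cells led by Crhbp and Slc26a7. Tyrp1, a defining pigment cell gene, was at 0 CPM in all named clusters and Pmel was at most 0.4 CPM. Estimated counts per cell ranged from 1848 to 7932729 with a median of 1313000, and 20 WT cells had fewer than 100000. Of those, 17 belonged to the WT session of run 1 at P23, which had 22 cells, 20 of them in the unnamed blood-gene cluster. Cells are grouped by run 1 to 4, the dates that their deposited files carry, and by session, the cells of 1 run, genotype and age whose files also share a number. What that number stands for is not stated. Sessions of different age hold different mice, but the number of mice in a session is not known. Run 1 held WT cells and 1 KO cell, run 2 held WT and KO, run 3 WT only, and run 4 all 3 genotypes, so genotypes were compared within runs 2 and 4. Slc26a4 itself was counted in 32 of 40 WT cells (mean 944 CPM), 7 of 8 HET cells (554 CPM) and 14 of 22 KO cells (793 CPM) of the SC-like and RC-like clusters, so its gene-level count did not check the genotype labels.

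Few of the pseudogenes carried most of the counts. Of the 270, 93 had no count in any cell and 44 were counted in a single cell. On the CPM scale, each cell's estimated counts scaled to a common total, 27 reached a mean of 1 CPM over all cells and 10 reached 10 CPM. Those were Rpl3-ps1, Rpl10-ps3, Rps13-ps1, Rps2-ps10, Rps23-ps1, Rpl34-ps1, Rpl28-ps1, Rpl27-ps3, Rps6-ps4 and Rpl14-ps1. The first 10 held 84.3% of all pseudogene CPM over the named clusters. Rpl3-ps1, a copy of the gene for a core large-subunit protein, was highest with a mean of 108.03 CPM over the named clusters, above its parent Rpl3 at 39.5 CPM. Rpl10-ps3 followed at 68.7 CPM, against 113.14 CPM for Rpl10, which encodes a large-subunit protein. Rpl10-ps3 is annotated as protein coding. Rps6-ps4, at 14.0 CPM, had 30.9% of its CPM over all cells in 1 cell and a count in 54 cells, so its mean describes few cells.

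The level went with likeness to the parent. The 10 members at 10 CPM or more had a median identity of 99.9% to the parent transcript (98.9 to 100%). The median was 99.4% for the 17 members between 1 and 10 CPM, 97.1% for the members with a count but under 1 CPM and 92.05% for the members without a count. Kallisto matches reads by 31-base words, and a word held by no other transcript is what can tell a copy from the rest. Such words made up a median of 1.31% of all words in the members at 10 CPM or more, 2.22% in those between 1 and 10 CPM, 33.9% in those under 1 CPM and 66.5% in those without a count. Of the 10 highest members, 5 had no such word at all, including Rps23-ps1, Rpl27-ps3, Rpl28-ps1 and Rps6-ps4, whose aligned sequences are 100% identical to their parents. The fifth, Rpl34-ps1, shared 90.1% of its words with the look-alike gene Gm10154, which held little of the count: the 4 look-alike copies of Rpl34-ps1 other than the parent summed to at most 0.0862 CPM in any run and genotype. Over all 270 members, 35 had no word of their own.

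**Figure D1:**
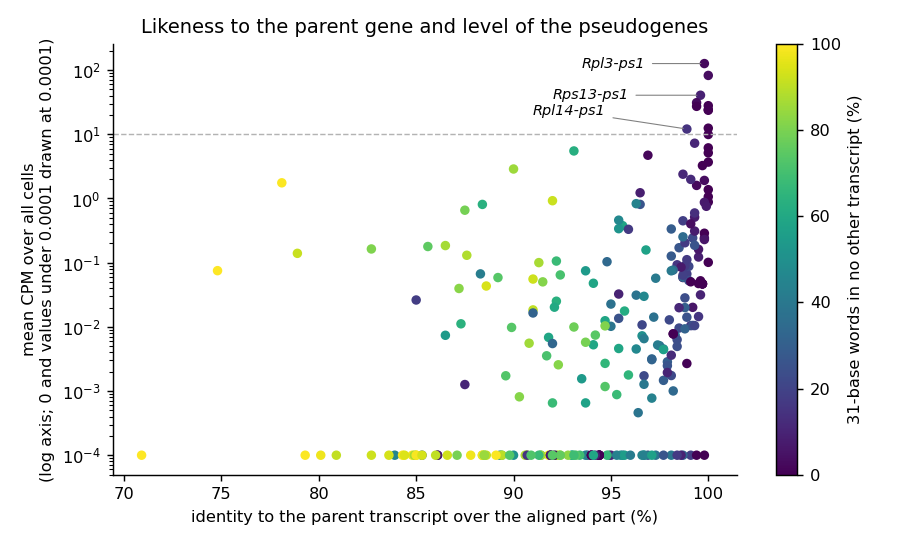
Each point is a pseudogene, with its identity to the parent transcript over the aligned part (percent) on the x axis, its mean CPM over all cells on a log y axis and its share of 31-base words held by no other transcript (percent) as colour. The 10 pseudogenes above the dashed line at 10 CPM lie between 98.9 and 100% identity, and members without a count, drawn at the floor, spread from 70.9 to 99.8%.

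The pseudogenes took a similar part of all ribosomal protein counts in each cell type. In WT cells the mean share per cell was 7.96% in IMC-like (55 cells), 8.69% in SC-like (23 cells), 9.37% in RC-like (17 cells) and 8.48% in MC-like cells (14 cells), each with single cells from 2.77% or less up to 11.2% or more. The shares overlapped between cell types. The summed level was 902 CPM in WT RC-like cells, 553 CPM in SC-like, 368 CPM in MC-like and 321 CPM in IMC-like cells. The ribosomal protein genes followed the same order, with 7736, 6008, 4384 and 3715 CPM. The RC-like level depended on the run: 1528.5, 26.6, 787 and 497 CPM in runs 1 to 4, with 6, 1, 4 and 6 cells. SC-like cells had 524, 394, 598 and 463 CPM. Fewer reads for other RNAs and more ribosomal protein RNA per cell cannot be told apart on this scale.

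Taken over all runs, most of the highest members were highest in WT RC-like cells. Of the 10, 8 were highest there and Rps2-ps10 and Rps6-ps4 were highest in SC-like cells, by 0.17 and 0.02 on the log2 scale over the next type. The members that stood furthest above their next cell type were Rps23-ps1, Rpl14-ps1 and Rps13-ps1. Rps23-ps1, a copy of the gene for a small-subunit protein of the decoding centre, averaged 60.9 CPM in RC-like cells, 22.2 CPM in SC-like, 22.1 CPM in IMC-like and 21.3 CPM in MC-like cells, a log2 ratio of 1.42 over the next. Rpl14-ps1 averaged 20.2 CPM in RC-like cells and had 9.10 CPM in SC-like cells (log2 ratio 1.07), with a count in 7 of 17 and 5 of 23 cells. Rps13-ps1 averaged 74.4 CPM in RC-like cells against 38.2 CPM in IMC-like cells (log2 ratio 0.94), although its median over the RC-like cells was 1.8 CPM and its highest cell 466 CPM. All log2 ratios here add a pseudocount of 1 CPM to both means, which understates changes of low genes.

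**Figure D2:**
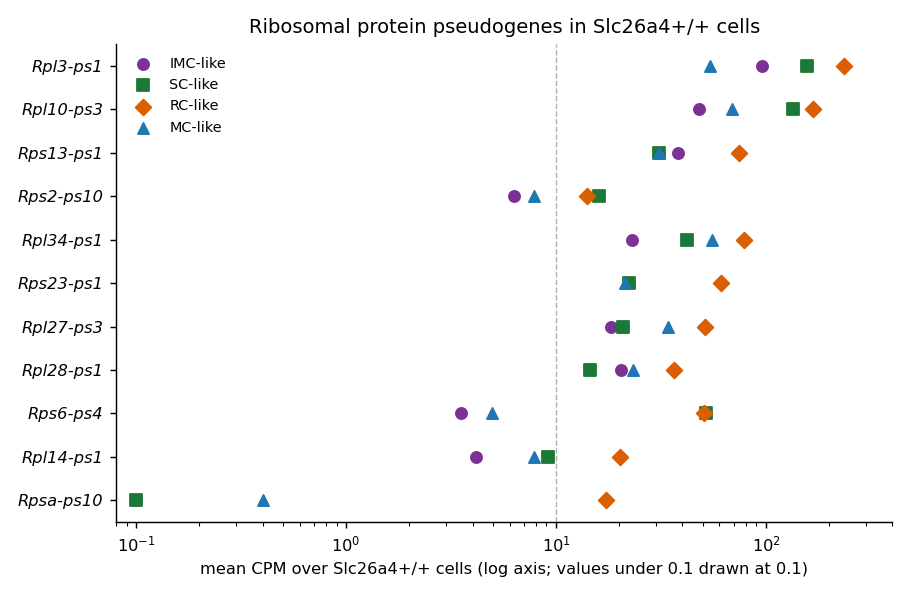
Mean CPM of the named pseudogenes on a log axis in WT cells of the 4 named clusters, with 1 row per pseudogene and values under 0.1 CPM drawn at 0.1. Rpl3-ps1 is at 234.99 CPM in RC-like cells and 54.2 CPM in MC-like cells, while Rpsa-ps10 is near 0 in all types except RC-like (17.4 CPM, counted in 3 of 17 cells).

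Between genotypes, Rps13-ps1 and Rpl34-ps1 were nearly absent from KO cells. The study lists both among genes it chose on these cells, so their direction here is not independent evidence. They were looked at by session after the data had been seen, using sessions of 3 cells or more and all cells of a session. In run 2, Rps13-ps1 had session means of 0.42, 0.64, 0, 4.02 and 1.58 CPM in KO and of 5.67, 40.3, 78.1, 80.7 and 56.5 CPM in WT. In run 4 it had 4.49, 0 and 0 CPM in KO, 36.2, 18.03, 10.02 and 21.5 CPM in HET and 19.5, 107.3 and 4.84 CPM in WT. KO sessions lay below WT sessions in both runs, by narrow gaps at the edge (4.02 against 5.67 CPM, and 4.49 against 4.84 CPM). A session of 7 KO cells of run 2 had no Rps13-ps1 count in any cell, and 3 of 22 KO cells of run 4 had any.

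Rpl34-ps1 separated further. Its KO session means in run 2 were 0 in 4 sessions and 0.26 CPM in the other, against 26.2, 22.2, 62.5, 100.5 and 19.9 CPM in WT. In run 4 they were 0, 0 and 0.06 CPM in KO, 31.9, 12.9, 13.8 and 6.98 CPM in HET and 9.34, 57.95 and 39.2 CPM in WT. Only 2 of 46 KO cells of run 2 and 1 of 22 of run 4 held a count, against 14 of 26 and 16 of 19 WT cells. In runs 1 and 3, which hold WT sessions and no KO session, Rpl34-ps1 session means ran from 2.04 to 58.3 CPM and from 20.4 to 81.4 CPM. The lowest, 2.04 CPM, was the WT session at P23 whose cells were mostly shallow and mostly in the unnamed blood-gene cluster.

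No overlap of sessions in both runs was seen for these 2 of the 9 members that averaged 10 CPM or more over the sessions of both genotypes in each run, both lower in KO. Of the 8460 genes at that level, 0.142% were lower in every KO session than in every WT session of both runs and 0.248% were higher. No member at that level was higher in both. Rpsa-ps10 was higher in every KO session of both runs, but it averaged under 10 CPM in run 4. It was counted when the level was set at 1 CPM. Rps13-ps1 and Rpl34-ps1 reached the level through their WT sessions, so the numbers of lower and higher members depend on the level. Of the 72 ribosomal protein genes at that level, 1 (Rpl29) was higher in both and none was lower. In run 2 alone, 2 of 12 members were lower in every KO session (0.319% of genes), and Rpsa-ps10, Rps2-ps10 and Rpl14-ps1 were higher in every KO session (1.49% of genes). In run 4, Rps23-ps1, Rps13-ps1 and Rpl34-ps1 of 9 members were lower (6.6% of genes) and none of the 9 was higher (7.15%). Rpsa-ps10 is not among those 9. Between HET and WT no member at that level separated in either direction (3.18% of genes higher and 3.05% lower). Between KO and HET, Rps13-ps1 and Rpl10-ps3 of 9 members were lower in every KO session (2.68% of genes) and none was higher (3.04%). Rpl34-ps1 was also lower in every KO session than in every HET session, but it fell under the level of 10 CPM there. The ribosomal protein genes themselves were also often lower in run 4, where 22 of 75 were lower in every KO session and 3 were higher, while in run 2 none of 72 was lower and 2 were higher. Without the WT session of run 4 at P33, the count lower in both runs fell from 2 to 1, leaving Rpl34-ps1. With IMC-like cells only it was 0.

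The counts divided differently between the pseudogene and its parent. The share of the pair's CPM on the pseudogene was computed from mean CPM over cells. For Rps13 and Rps13-ps1 in run 2 the pseudogene held 82.02% in WT and 2.39% in KO cells, and the pair together averaged 58.7 and 63.9 CPM. In run 4 it held 89.1% in WT, 44.3% in HET and 5.74% in KO cells, with the pair at 45.8, 48.7 and 28.5 CPM. For Rpl34 and Rpl34-ps1 it held 65.6% in WT and 0.07% in KO cells of run 2, with the pair at 68.01 and 41.8 CPM. In run 4 it held 59.2% in WT, 27.7% in HET and 0.05% in KO cells, with the pair at 63.3, 57.3 and 32.1 CPM. The share was low in KO in both runs, and the Rpl34 pair was also lower as a whole. Counting the estimated counts over all cells and runs, Rpl34-ps1 held 66.3% in WT (exact 95% interval 65.6 to 67.03%), 28.5% in HET (27.4 to 29.6%) and 0.07% in KO (0.01 to 0.21%). Such intervals hold the error of counting alone, because reads copied by PCR are not separate molecules. The parents did not move in 1 direction. Rps13 had 27.6 CPM in KO and 25.6 CPM in WT IMC-like cells of run 2 (log2 ratio 0.11), 27.2 and 6.69 CPM in those of run 4 (1.87) and 30.8 and 1.05 CPM in RC-like cells (3.96). Rpl34 had 17.6 CPM in KO and 44.004 CPM in WT IMC-like cells of run 4 (-1.27), lower together with its pseudogene, and 55.05 and 26.007 CPM in RC-like cells (1.05). Within IMC-like cells the Rps13 pair sum was lower in KO, with log2 ratios of -1.41 in run 2 and -0.47 in run 4. That of the Rpl34 pair was -2.10 in run 4. In RC-like cells of run 4 the ratios were -0.87 for the Rps13 pair and -0.63 for the Rpl34 pair.

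In 3 cases KO and WT sessions of run 2 carried the same number and had at least 3 cells each, at P44 and P42, P31 and P34, and P25 and P23. Rps13-ps1 had 0.42 and 40.3 CPM, 0.64 and 80.7 CPM, and 0 and 56.5 CPM in KO and WT of these pairs of sessions. Rpl34-ps1 had 0 and 22.2 CPM, 0.26 and 100.5 CPM, and 0 and 19.9 CPM. Both were lower in KO in each of the 3, while Rps2-ps10, Rpl14-ps1 and Rpsa-ps10 were higher in KO in each. The WT session nearest to the KO sessions in Rps13-ps1, at P40 with 5.67 CPM, shared its number with no KO session.

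The reverse of Rps13-ps1 and Rpl34-ps1 held for Rps2-ps10, Rpl14-ps1 and Rpsa-ps10. Rps2-ps10, a copy on chromosome 18 of the gene for a small-subunit protein, held 24.4% of its pair in WT and 91.5% in KO cells of run 2, and 29.8% in WT, 67.8% in HET and 98.8% in KO cells of run 4. Its session means in run 2 were 57.5, 106.5, 52.4, 113.4 and 45.6 CPM in KO and 1.98, 19.7, 24.9, 7.28 and 8.27 CPM in WT. In run 4 they were 31.1, 40.5 and 46.5 CPM in KO and 4.95, 39.6 and 4.08 CPM in WT, which overlap. Over all runs the parent Rps2 averaged 29.1 CPM in WT and 4.30 CPM in KO cells. The pair together averaged 40.8 CPM in WT and 73.3 CPM in KO cells of run 2, and 51.6 CPM in WT, 62.05 CPM in HET and 39.2 CPM in KO cells of run 4, so its sum was higher in KO in one run and lower in the other.

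Rpsa-ps10 was close to absent from WT cells and held about the same share in each KO session. It had 0.22% of its pair in WT and 75.8% in KO cells of run 2, and 0.30% in WT, 24.9% in HET and 75.8% in KO cells of run 4. Its 8 KO sessions lay between 68.4 and 79.4%, and in the 31 KO cells with at least 10 counts on the pair the share ran from 56.25 to 90% with a median of 77.5%. Session means in run 2 were 27.5, 53.3, 21.5, 13.9 and 18.7 CPM in KO and 0.32, 0, 0, 0 and 0 CPM in WT. In run 4 they were 11.5, 23.04 and 16.6 CPM in KO, 14.3, 9.68, 1.63 and 2.59 CPM in HET and 0, 0 and 0.44 CPM in WT. No count of it was seen in the 75 WT cells of run 3. The exception among WT sessions was that of run 1 at P22 (7 cells), with 41.6 CPM and a share of 32.3%.

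Rpl14-ps1, a copy of a large-subunit protein gene, shifted by less. It held 0.10% of its pair in WT and 23.02% in KO cells of run 2. In run 4 it held 14.95% in WT, 11.5% in HET and 24.7% in KO cells, so HET lay below WT. Over both runs KO sessions lay between 16.8 and 35.02%, and HET sessions lay between 8.33 and 20.5%. WT sessions of all runs lay between 0 and 29.4%, and the WT sessions at P23 of run 1 (29.2%) and at P29 of run 4 (29.4%) overlapped the KO sessions. Rps2-ps6, also on the study's lists, was low throughout, with 1.71 CPM in WT, 1.26 CPM in HET and 0.01 CPM in KO cells.

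**Figure D3:**
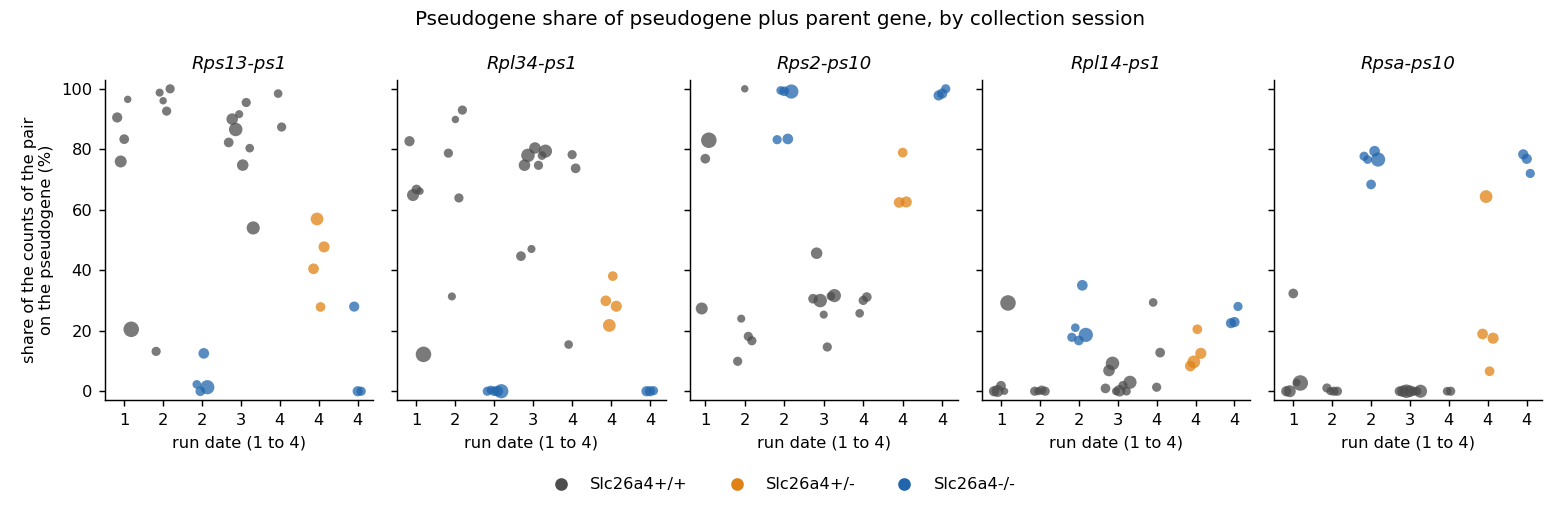
Share of each pair's CPM on the pseudogene (percent, y axis) for every session of 3 cells or more with at least 10 CPM on the pair, by genotype and run. For Rpl34-ps1 the KO sessions lie at or below 0.41% and the HET sessions between 21.8 and 38.1%, while for Rpsa-ps10 the KO sessions lie between 68.4 and 79.4%.

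In single cells most HET cells held counts of both copies of the Rpl34 and Rpsa pairs. So did most WT cells for the Rpl34 pair and all KO cells for the Rpsa pair. Among cells with at least 10 counts on the Rpl34 pair, the pseudogene share was under 10% in all 41 KO cells, with a highest share of 2.0%. It was between 10 and 90% in 24 of 32 HET cells, with 7 below and 1 above, and in 87 of 96 WT cells. For the Rps13 pair it was under 10% in 37 of 41 KO cells, 7 of 26 HET cells and 7 of 91 WT cells, and over 90% in 47 of the WT and 2 of the KO cells. For the Rpsa pair all 31 KO cells lay between 10 and 90% and 53 of 54 WT cells lay under 10%, and of 11 HET cells 8 lay between and 3 under. Rps2-ps10 held over 90% in 37 of 44 KO cells, 9 of 20 HET cells and 2 of 50 WT cells.

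**Figure D4:**
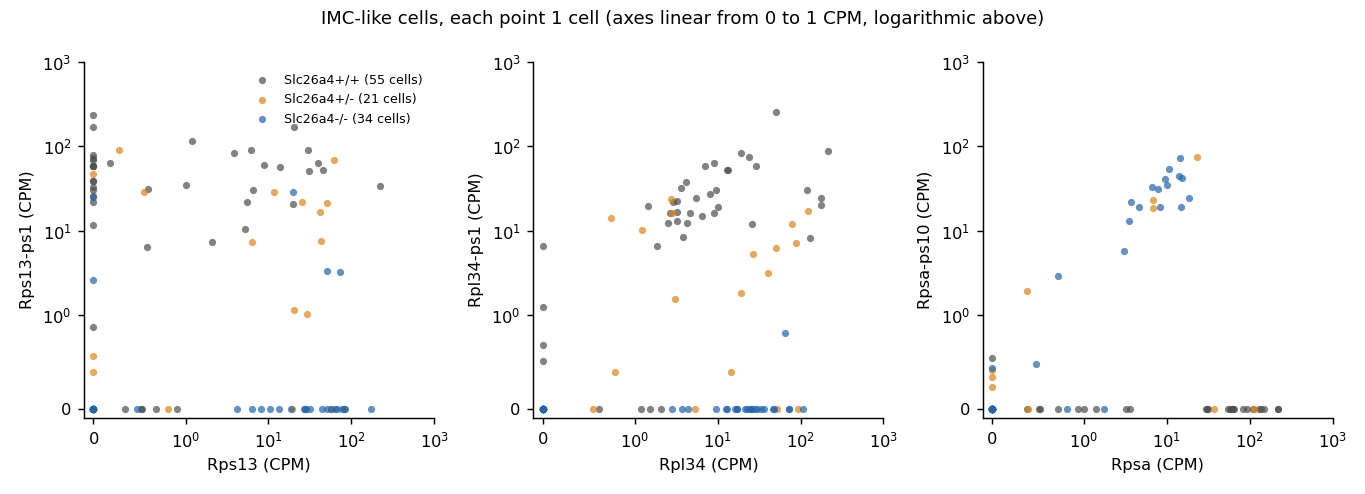
Each point is an IMC-like cell (55 WT, 21 HET and 34 KO cells), coloured by genotype, for the Rps13, Rpl34 and Rpsa pairs. The x axis gives CPM of the parent gene and the y axis CPM of the pseudogene, linear from 0 to 1 CPM and logarithmic above. For Rpl34-ps1 the 12 KO cells of run 4 lie at 0, and all 7 WT cells of that run hold a count.

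Some WT sessions went against the rest. In run 1 the WT session at P23 had shares of 20.5% for Rps13-ps1 and 12.2% for Rpl34-ps1, where the other WT sessions of run 1 had at least 75.97 and 64.9%. The WT session of run 2 at P40 (6 cells) had 13.2% for Rps13-ps1 but 78.7% for Rpl34-ps1. The WT session of run 4 at P29 (5 cells) had 15.4% for Rpl34-ps1 and 98.4% for Rps13-ps1. The single KO cell of run 1 had 136.3 CPM of Rps13 and 1.09 CPM of Rps13-ps1, 46.8 CPM of Rpl34 with Rpl34-ps1 at 0, and 33.8 CPM of Rps2-ps10 with Rps2 at 0. Other copies that held at least 50% of a pseudogene's words were summed by run and genotype. The sums reached at most 6.70 CPM beside Rps13-ps1, 9.34 CPM beside Rps2-ps10 and 1.09 CPM beside Rpsa-ps10. The 6.70 CPM was in KO cells of run 2, where Rps13-ps1 had 1.53 CPM and Rps13 62.4 CPM. The 9.34 CPM was in WT cells of run 2, where Rps2-ps10 had 9.95 CPM and Rps2 30.9 CPM. Copies sharing fewer words were not summed, nor was Gm7432, which shares words with Rps2-ps10. Counts divided onto other copies are therefore not set aside for these pairs. Whether the division followed bases that the mice carry at the differing positions was not tested.

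The pairs of Rpl3 and Rpl10 were read for comparison, over all cells and runs. Rpl3-ps1 held 72.7% of its pair in WT, 78.8% in HET and 72.4% in KO cells, with sessions between 26.7 and 84.1% in WT, 77.8 and 81.6% in HET and 56.7 and 81.7% in KO. Rpl10-ps3 held 39.02, 35.9 and 32.6%, with sessions overlapping between all genotypes. Within IMC-like cells of run 2 it had 20.3 CPM in KO and 48.9 CPM in WT, where Rpl10 had 35.1 and 49.2 CPM. In those of run 4 it had 22.4 and 56.8 CPM, where Rpl10 had 67.3 and 72.1 CPM. In RC-like cells of run 4 it had 52.7 and 42.8 CPM, where Rpl10 had 117.3 and 140.3 CPM. Rps23-ps1, with no base that differs from its parent over the aligned part, had sessions between 16.9 and 63.8% in WT and between 15.2 and 58.5% in KO.

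Within a cell type and run, few members reached the level needed for a comparison. Both genotypes had at least 3 cells in the IMC-like cells of runs 2 and 4 and the RC-like cells of run 4. In IMC-like cells of run 2 (22 KO and 10 WT cells), 7 members were measured, with a mean of the 2 group means of 10 CPM or more. Of these, 1 was 2-fold higher in KO (25.6% of genes) and 2 were lower (24.3% of genes). The median log2 ratio of the 7 was -0.49, against -0.03 for all genes. Rps13-ps1 averaged 1.57 CPM in KO cells and 53.9 CPM in WT cells (log2 ratio -4.42), with a count in 3 of 22 and 7 of 10 cells. Rpl10-ps3 averaged 20.3 against 48.9 CPM (log2 ratio -1.23), and Rps2-ps10 42.99 against 11.3 CPM (1.83) while its parent Rps2 went from 43.2 CPM in WT to 10.4 CPM in KO (-1.95).

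In IMC-like cells of run 4 (12 KO and 7 WT cells), 6 members were measured, 1 was 2-fold higher (21% of genes) and 3 were lower (20.9% of genes), with a median of -0.66 against -0.10 for all genes. Rpl34-ps1 had no count in 12 KO cells and a count in all 7 WT cells (mean 34.9 CPM), so its level in KO was listed at 0. Rps13-ps1 averaged 2.37 against 34.7 CPM (log2 ratio -3.41), and its parent had 27.2 against 6.69 CPM (1.87). Rps2-ps10 averaged 37.2 against 10.1 CPM (1.78), and Rps2 had 0.58 CPM in KO and 28.6 CPM in WT (-4.22). Pericyte markers, 4 genes, had a median sum of 155.6 CPM (0.831 to 1025) in these KO cells and 3.26 CPM (0 to 632.9) in WT cells, and basal markers 27.4 CPM (0 to 80.7) and 4.105 CPM (0 to 165.97). In IMC-like cells of run 2 the pericyte sums were 66.9 CPM (0 to 2908) in KO and 21.996 CPM (0 to 782.7) in WT. Their part in these values was not tested.

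In RC-like cells of run 4 (7 KO and 6 WT cells), 11 members were measured, 1 was 2-fold higher (28.5% of genes) and 5 were lower (27.7% of genes), with a median of 0.29 against 0.03. Rps13-ps1 had no count in 7 KO cells and 55.9 CPM in WT cells, but only 2 of the 6 WT cells held a count and the median WT cell was at 0. Rpl34-ps1 averaged 0.05 CPM in KO and 59.8 CPM in WT cells (log2 ratio -5.86), with a count in 1 of 7 and 5 of 6 cells. Rpsa-ps10 averaged 26.3 CPM in KO cells and 0.42 CPM in WT cells (4.26), with a count in 6 of 7 and 1 of 6. Rps23-ps1 averaged 9.05 against 36.4 CPM (-1.90) and Rpl27-ps3 11.3 against 33.3 CPM (-1.48). These WT cells also held more of the 3 basal cell markers, with a median sum of 889 CPM (15.2 to 1548) against 29.2 CPM (0.4 to 804) in KO cells, their blood marker sum had a median of 96.8 CPM against 0.382 CPM, and 1 WT cell held 1504 CPM of the 5 macrophage markers. Their part in these values was not tested.

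**Figure D5:**
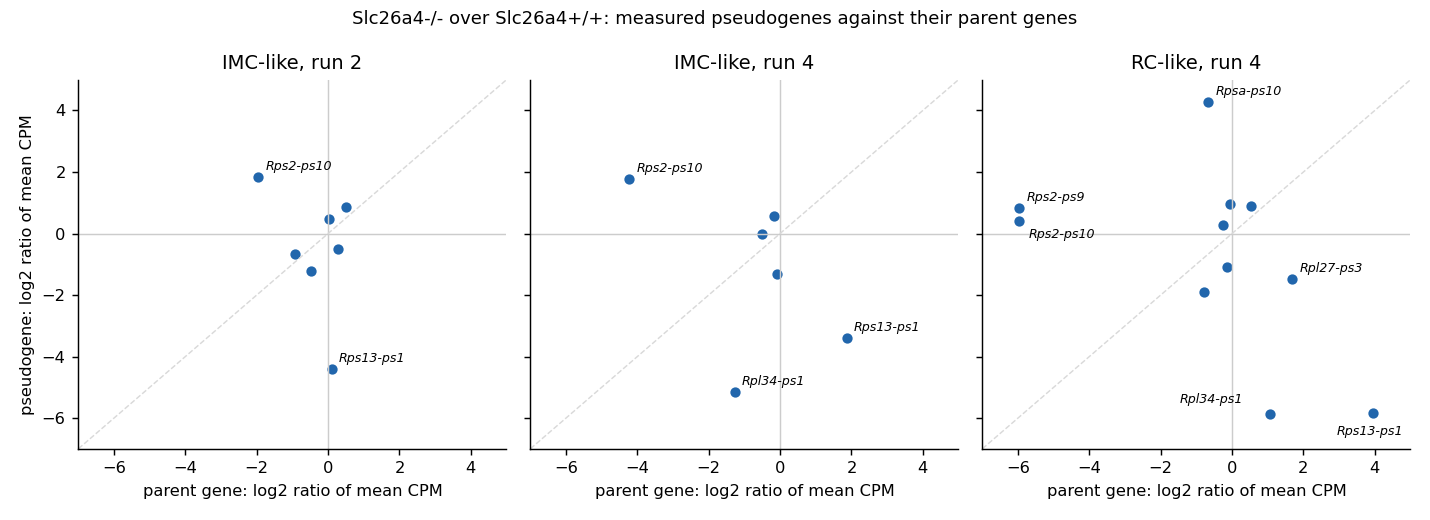
Log2 ratio of mean CPM, KO over WT, for each measured pseudogene (y axis) against its parent gene (x axis) in the 3 comparisons. Points at the upper left or lower right moved against their parent: Rps2-ps10 at 1.83 against -1.95 in run 2, and Rps13-ps1 at -3.41 against 1.87 in IMC-like cells of run 4.

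The summed level of the pseudogenes differed little between genotypes. The log2 ratio of the summed level, KO over WT, was -0.05 in IMC-like cells of run 2, -0.17 in IMC-like cells and -0.13 in RC-like cells of run 4, where the summed parent genes had 0.24, -0.32 and -0.58. Over all runs, the share of ribosomal protein counts on pseudogenes was 7.69% in KO and 7.96% in WT IMC-like cells. It was 10.2% and 9.37% in RC-like cells and 9.81% and 8.69% in SC-like cells. Between WT sessions of all runs the share had a standard deviation of 1.54 percentage points in IMC-like and 4.37 in RC-like cells. These pooled differences therefore lay within the spread between sessions. Within run 4, RC-like cells had 9.29% in KO (7 cells, sessions 8.10 to 12.3%) and 5.73% in WT (6 cells, sessions 4.53 to 7.08%). Those sessions, 2 of each genotype with at least 2 cells, did not overlap. IMC-like cells had 7.55% in KO and 8.54% in WT of run 2, and 7.94% and 6.77% in run 4. Of the translation factors listed as other genes of the pathway, 1 of 15 measured was 2-fold higher in KO and 3 were lower in IMC-like cells of run 2. In run 4, 3 of 16 were higher and 2 lower in IMC-like cells, and 4 were higher and 0 lower in RC-like cells.

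Within run 4, the only run with HET cells, HET lay between WT and KO in the share of 4 of the 5 pairs over all cells, and below WT for Rpl14-ps1. In IMC-like cells (21 HET and 7 WT cells), 7 members were measured, 0 were 2-fold higher (20% of genes) and 2 were lower (19% of genes). Those were Rpl34-ps1, at 5.66 against 34.9 CPM (log2 ratio -2.43), and Rps13-ps1, at 16.3 against 34.7 CPM (-1.04). Against HET, 1 of 6 members was 2-fold higher in KO (13.9% of genes), Rpsa-ps10 at 15.995 against 5.69 CPM, and 1 was lower (14.7% of genes), Rpl10-ps3 at 22.4 against 56.8 CPM. In RC-like cells (6 and 6 cells), HET against WT had 1 of 11 members higher (30.2% of genes) and 5 lower (28.5% of genes), and KO against HET had 3 higher (24.9% of genes) and 3 lower (25.5% of genes). Rps12-ps3, annotated as protein coding, was the member higher in HET, at 24.9 against 9.84 CPM with a count in 2 of 6 and 3 of 6 cells, and with its parent Rps12 at 0 in both groups. Rpl34-ps1 had 21.5 CPM in HET RC-like cells (6 of 6 cells) and 0.05 CPM in KO. The directions of Rps13-ps1, Rps2-ps10 and Rpl14-ps1 between HET and WT in RC-like cells each turned without 1 WT session, so no direction is read for them.

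Between sequencing runs of WT cells, members also passed 2-fold in both directions. In IMC-like cells of run 3 against run 1, 4 of 7 measured members were 2-fold higher (39% of genes) and 1 lower (19.1% of genes). Rpl34-ps1 averaged 27.6 CPM in run 3 and 4.62 CPM in run 1 (log2 ratio 2.35). In run 2 against run 1, 1 of 4 was higher (36.4% of genes) and 1 lower (25.4%), and in run 4 against run 1, 2 of 7 were higher (37.2%) and 1 lower (25%). Against run 2, 4 of 7 were higher (28.8%) and 0 lower (20.4%) in run 3, and 1 of 7 was higher (29.2%) and 0 lower (28.3%) in run 4. In run 4 against run 3, 0 of 7 were higher (14.9%) and 2 lower (23.6%).

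Members of WT RC-like cells were mostly lower in the later runs than in run 1. In run 3 against run 1, 0 of 13 were higher (32.8% of genes) and 8 were lower (39.5% of genes). In RC-like cells of run 4 against run 1, 1 of 13 members was higher (37.2% of genes) and 8 were lower (31.6% of genes), with a median log2 ratio of -1.39 against 0.15 for all genes. Rps6-ps4 averaged 6.40 CPM in run 4 and 137.4 CPM in run 1, and Rpsa-ps10 0.42 and 48.7 CPM. In run 4 against run 3, 3 of 10 were higher (39.6% of genes) and 2 lower (27.1%). In SC-like cells of run 4 against run 1 (3 and 3 cells), 3 of 13 members were higher (43% of genes) and 6 lower (32.2% of genes), and Rpl10-ps1 had 67.9 CPM in run 1 and was at 0 in run 4, with a count in 1 of 3 cells of run 1. In run 3 against run 1, 2 of 12 were higher (48.3%) and 4 lower (22.5%), and in run 4 against run 3, 2 of 10 were higher (22.8%) and 2 lower (39.6%). In MC-like cells of run 3 against run 2, 1 of 8 was higher (42.3% of genes) and 3 were lower (27.3% of genes), with Rpl10a-ps1 at 0.40 and 46.3 CPM. Median counts per cell in the WT IMC-like cells were 1398600, 1355700, 1313200 and 1831800 in runs 1 to 4, and those of RC-like cells were 594620 in run 1, 1226400 in run 3 and 1292700 in run 4. The part of depth in these values was not tested.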

How the data were processed

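Single-cell libraries of 281 cells were prepared by the authors with Smart-Seq2 and quantified with Kallisto on the mm10 (GRCm38) transcriptome. The version is not given in the sources used here. The authors deposited a gene table of estimated counts, cut to whole numbers, and transcript files per cell with estimated counts and TPM. Columns without a sample (17) were not used.

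CPM was computed per cell from the estimated counts. No count model was run, because no mouse was named. Cells were clustered in Seurat 5.3.0 (R 4.3.3; 2000 variable genes less ribosomal protein genes, members and genes the study tabulated, 10 components, resolution 0.8) and named from marker lists. Cells were picked singly and no doublet caller was run. Levels were averaged over cells where at least 3 cells stood in each group. A gene counted as measured where the mean of the 2 group means reached 10 CPM, and was called past 2-fold on log2(CPM + 1). Transcripts were compared with their parents in GENCODE M21, by alignment and by 31-base words (Python 3.11.15, pandas 2.3.3). Only the log2 ratio between 2 groups of cells was tested on simulated counts with known folds. Members and lists were chosen with earlier results of these data known.

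Members named are the 10 with the highest mean, the 2 highest and 2 lowest log2 ratios of each comparison of genotypes or runs, the 3 most above their next cell type, the 9 that the study's tables list, and their parents. The pair shares and the comparison by session were added after the data were seen. Alternatives were other pseudocounts, levels, weights, cell typing, TPM and each session left out.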

Additional observations from a re-analysis of the deposited data

Results flagged for a closer look

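A session was set apart where its distance to the nearest session exceeded Dixon's 95% critical value within its genotype and run. This happened in 12 of 28 groups of 4 or more sessions. The 5% that chance alone would give holds for normal values, whereas shares are bounded and often tied. Where all other sessions were tied, any different value was set apart, however small. The 12 of 28 therefore cannot show more outliers than chance. The groups also reuse the same sessions and are not independent, and the labels do not say that sessions are separate mice.

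The WT session of run 1 at P23 (22 cells, mostly shallow, 20 in the unnamed blood-gene cluster) stood apart for 3 pairs: its share on Rps13-ps1 was 20.5% with the nearest session at 75.97%, on Rpl34-ps1 12.2% against 64.9%, and on Rpl14-ps1 29.2% against 1.81%. In run 2, the WT session at P40 had 13.2% on Rps13-ps1 against 92.6%, and 1.07% on Rpsa-ps10 where the other 3 were at 0. That at P32 (3 cells) had 100% on Rps2-ps10 against 24.004%, and 14.1% of its ribosomal protein counts on pseudogenes against 8.90%. In run 1 the session at P22 (7 cells) had 32.3% on Rpsa-ps10 against 2.88%. In run 2 the WT session at P34 had 0.367% on Rpl14-ps1 where the other 3 were at 0. Among KO sessions of run 2, that at P24 had 35.02% on Rpl14-ps1 against 21.001%, that at P31 had 0.415% on Rpl34-ps1 where the other 4 were at 0, and that at P25 had 68.4% on Rpsa-ps10 against 76.6%.

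The unnamed blood-gene cluster is in no comparison of cell types above. Its 6 KO cells of run 2 averaged 95.1 CPM of Rps2-ps10, where its 6 WT cells of that run averaged 4.72 CPM, and 42.3 CPM of Rpsa-ps10, which had no count in those WT cells.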

How the results depend on the processing

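No paired analysis was possible because the numbers in the labels name single cells and none is shared between genotypes. KO and WT sessions of run 2 that share a file number are set side by side above, with no test, since what the number stands for is not stated. There were 962 alternative values. For shares, summed levels and counts, 529 stayed within 1 standard deviation between sessions or within 1.5 times the count, 89 moved further and 2 turned direction. For the log2 ratios of named members, 38 moved and 6 turned, the rest stayed, and 26 further values could not be given, with under 3 cells left. The pair shares and session counts, and their alternatives, were chosen after seeing the data. The causes were not tested.

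The share of ribosomal protein counts became 10.4, 11.2, 11.9 and 12.4% in WT IMC-like, SC-like, RC-like and MC-like cells with TPM. In MC-like cells it was 7.05% with types from the marker score, 7.98% with sessions weighted equally, 7.51% from summed counts and 8.09 to 8.93% with each session left out.

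Counts past 2-fold follow the order KO against WT, HET against WT and KO against HET. In IMC-like cells, with no level, KO against WT had 19 (run 2) and 18 (run 4), HET against WT 8 and KO against HET 8; in RC-like cells these were 21, 21 and 14. At 50 CPM all were 0. With TPM they were 14, 11, 4 and 8 in IMC-like and 13, 13 and 13 in RC-like cells. In IMC-like cells of run 2, KO against WT gave 7 with equal weights and 2 to 5 with each session left out. A pseudocount of 10 CPM gave 1 for HET against WT and 1 for KO against HET in IMC-like cells and 2 for HET against WT in RC-like cells. Marker-score types gave 4 and 10 for KO against HET in IMC-like and RC-like cells. The other clustering gave 1 for HET against WT in IMC-like cells, and medians gave 3 in RC-like cells. Sessions left out gave 1 to 3 for HET against WT and 1 to 4 for KO against HET in IMC-like cells.

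Between runs, with no level, counts were 90, 45, 80 and 17 in IMC-like, SC-like, RC-like and MC-like cells, and at 50 CPM 4, 3, 9 and 1. Medians gave 10, 3 and 12 in IMC-like, SC-like and RC-like cells. TPM gave 56, 43 and 11 in IMC-like, RC-like and MC-like cells. In MC-like cells a pseudocount of 10 CPM gave 2, equal weights 8 and sessions left out 2 to 7.

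Summed members in IMC-like cells with medians had log2 ratios of -0.56 (KO against WT, run 2), -0.66 (HET against WT) and 0.73 (KO against HET); marker-score types gave 0.70 for HET against WT in RC-like cells. Members at or above a mean level were 27 at 1 CPM, 2 at 50 CPM and 20 at 10 TPM. With words of 75 bases the median share of own words was 76%.

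The pair share, KO minus WT in percentage points, for Rps13-ps1 in IMC-like cells of run 2 was -24.3 with the other clustering and -88.7 to -49.0 with sessions left out. For Rpl34-ps1 there it was -58.03 with TPM, -12.03 with the other clustering and -86.9 to -19.5 with sessions left out. In IMC-like cells of run 4 it was -72.5 with TPM and -78.8 to -30.1 with sessions left out. For Rpsa-ps10 TPM gave 87.5, 90.7 and 81.4 in the IMC-like cells of runs 2 and 4 and the RC-like cells; for Rpl14-ps1 TPM gave 34.4 in IMC-like cells of run 4. In RC-like cells Rpl14-ps1 turned to -2.81 with marker-score types and was 1.40 to 22.9 with sessions left out. Rps2-ps10 was 12.5 to 68.8, and Rpsa-ps10 -11.1 (without the WT session at P33) to 72.7.

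Of the log2 ratios, HET against WT in RC-like cells turned for Rps13-ps1 to 3.53 (medians) and, with sessions left out, ran from -2.80 to 4.02 (without the WT session at P33). For Rps2-ps10 it turned to 1.47 (marker-score types) and ran from -3.39 to 2.54 (without that session), and for Rpl14-ps1 it ran from -1.58 to 0.71 (without a WT session at P34). KO against HET turned for Rps2-ps10 to -0.86 with marker-score types.

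Members lower in every KO session of both runs were 0 in IMC-like cells, 1 with TPM (Rpl34-ps1) and 1 to 2 with sessions left out. Members higher were 2 with TPM (Rpsa-ps10 and Rps2-ps10), 1 at 1 CPM (Rpsa-ps10) and 0 to 1 with sessions left out (Rps2-ps10 without the KO or the WT session of run 4 at P33).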

Other observations

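The 5 pairs were also read in the unnamed clusters, which enter no comparison of cell types above. In the HET cells of the blood-gene cluster (run 4, 5 cells), Rps13-ps1 held 52.1% of its pair, Rpl34-ps1 39.9%, Rps2-ps10 66.7%, Rpl14-ps1 7.46% and Rpsa-ps10 15.7%. In the 6 KO cells of run 2 in that cluster, Rps13-ps1 held 1.24%, Rpl34-ps1 0.16%, Rps2-ps10 99.5%, Rpl14-ps1 13.9% and Rpsa-ps10 72.7%. In its 11 WT cells of run 3, Rps13-ps1 held 89.8%, Rpl34-ps1 81.2%, Rps2-ps10 36.6%, Rpl14-ps1 0.01% and Rpsa-ps10 had no count. In the cluster led by Crhbp, the 4 HET cells had 26.4% on Rps13-ps1 and 38.8% on Rpl34-ps1, and the 5 WT cells of run 3 had 68.7% and 67.5%.

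Among the 6 members annotated as protein coding, Rpl10-ps3 averaged 82.7 CPM over all cells and Rps12-ps3 4.72 CPM (47 cells), Rpl9-ps6 averaged 0.756 CPM (26 cells), Rpl36a-ps1 was counted in 3 cells, and Rpl9-ps1 and Rpl36-ps4 had no count.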
